A study of Homo sapiens with 6 samples.

Results

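The p53 target genes described here are 30 genes known or reported to be raised by the transcription factor p53. They were taken as a fixed list of symbols and matched to the rows of a table of gene counts, where all 30 were found among 60564 genes. The cells were HEK293, an established human embryonic kidney line, profiled by RNA sequencing as 3 wild-type libraries (titled NC_HA) and 3 libraries with stable overexpression of SFXN2 (titled OE_HA). SFXN2 encodes sideroflexin 2, a carrier of the mitochondrial membrane. The labels name no promoter for the construct, no empty-vector control and no number of clones, and they do not spell out NC or HA. They also do not say that replicates were separate cultures, so the spread behind each p-value is that of these libraries and may be technical.

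The p53 protein is held low by MDM2, a ubiquitin ligase that p53 itself induces, and it accumulates after DNA damage and other stresses. It then raises genes that arrest the cell cycle, repair DNA, adjust metabolism and promote cell death, and through the inhibitor p21 it lowers genes of cell division. HEK293 cells carry adenoviral early genes whose products bind the p53 and RB proteins, a state shared by both groups. None of the measurements below is of p53 protein or of its activity.

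All 30 members passed the filter on low counts, and 0 of 30 passed an adjusted p of 0.05 between the groups, where 0.0106% of the 18797 genes tested did (edgeR's quasi-likelihood test). Between libraries, replicate 1 was the lowest wild-type library for 18 members, as for 35.0% of all genes tested, and the lowest overexpression library for 20, as for 40.8%. Wild-type replicate 2 was the library in which 15 of the 30 were at their highest, as 24.1% of all genes were. Total counts ran from 32121527 to 41217867 in wild type and from 40043248 to 59963713 with overexpression. SFXN2 was at 36.3 ± 8.44 CPM (CPM, a gene's count scaled by the library's TMM-adjusted total; SD, n = 3) in wild type and at 1734 ± 196 CPM (SD, n = 3) with overexpression, so each library matched its label. Levels below are CPM, given for wild-type replicates 1, 2 and 3 and then for overexpression replicates 1, 2 and 3. Fold changes are log2 values of overexpression over wild type. In such bulk RNA, fewer cells with a transcript and less of it per cell cannot be told apart.

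The regulatory sequence just before the start sites was read for the p53 decamer, the 10-base unit that p53 binds as a pair. RefSeq windows of 250 bases before a start (GRCh38.p14) were at hand for 23 of the 30 genes. The consensus decamer is its own reverse complement, so 1 search covers both strands. It was present in a window of 4 of these 23 genes (17.4%), against 6.8% of the 27305 genes with such windows. Counted by window, it was in 4 of 32, against 5.57% of 35116. The median GC content was 67.0% for the members and 58.0% for all, and its part was not tested. No member window held a pair of exact decamers within 13 bases of each other, as 0.0256% of all windows did. The 4 matching windows are shown because they are the only member sequences read here that carry a letter-for-letter match, which stands in capitals; each runs 5′ to 3′ on the gene's own strand.
PLK2: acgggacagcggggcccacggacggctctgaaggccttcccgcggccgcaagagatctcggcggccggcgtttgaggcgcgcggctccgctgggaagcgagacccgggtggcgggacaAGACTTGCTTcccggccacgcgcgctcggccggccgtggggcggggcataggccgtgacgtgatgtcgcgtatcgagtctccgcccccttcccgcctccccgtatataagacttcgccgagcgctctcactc
AEN: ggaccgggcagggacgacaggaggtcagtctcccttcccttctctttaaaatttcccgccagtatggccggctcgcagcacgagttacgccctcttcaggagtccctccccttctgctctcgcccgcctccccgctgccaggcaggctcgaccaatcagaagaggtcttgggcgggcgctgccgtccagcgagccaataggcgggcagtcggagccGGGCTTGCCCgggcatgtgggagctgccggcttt
SESN1: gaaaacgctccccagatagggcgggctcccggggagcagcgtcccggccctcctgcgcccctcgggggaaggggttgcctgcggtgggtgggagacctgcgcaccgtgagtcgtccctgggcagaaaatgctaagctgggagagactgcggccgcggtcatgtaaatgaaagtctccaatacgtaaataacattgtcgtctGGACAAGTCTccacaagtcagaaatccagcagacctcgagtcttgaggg
RPS27L: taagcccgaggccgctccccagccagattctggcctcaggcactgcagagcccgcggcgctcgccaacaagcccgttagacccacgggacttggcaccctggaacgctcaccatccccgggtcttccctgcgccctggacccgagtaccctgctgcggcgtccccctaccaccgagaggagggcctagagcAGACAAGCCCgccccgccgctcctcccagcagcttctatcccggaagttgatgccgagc
These windows lie at chr5:58460087-58460336 (minus strand), chr15:88621090-88621339 (plus strand), chr6:109008989-109009238 (minus strand) and chr15:63157478-63157727 (minus strand). The match began 132 bases before the start in PLK2, 34 in AEN, 49 in SESN1 and 59 in RPS27L. The SESN1 and RPS27L windows lie wholly inside the annotated genes, and those of PLK2 and AEN partly so. The other windows of SESN1 had no match. Windows of CDKN1A and MDM2 held none, which says only that no exact match lies in these 250 bases. Units that differ from the consensus at any base were not searched for, so binding sites with such units would be missed, alone or in pairs.

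**Figure D1:**
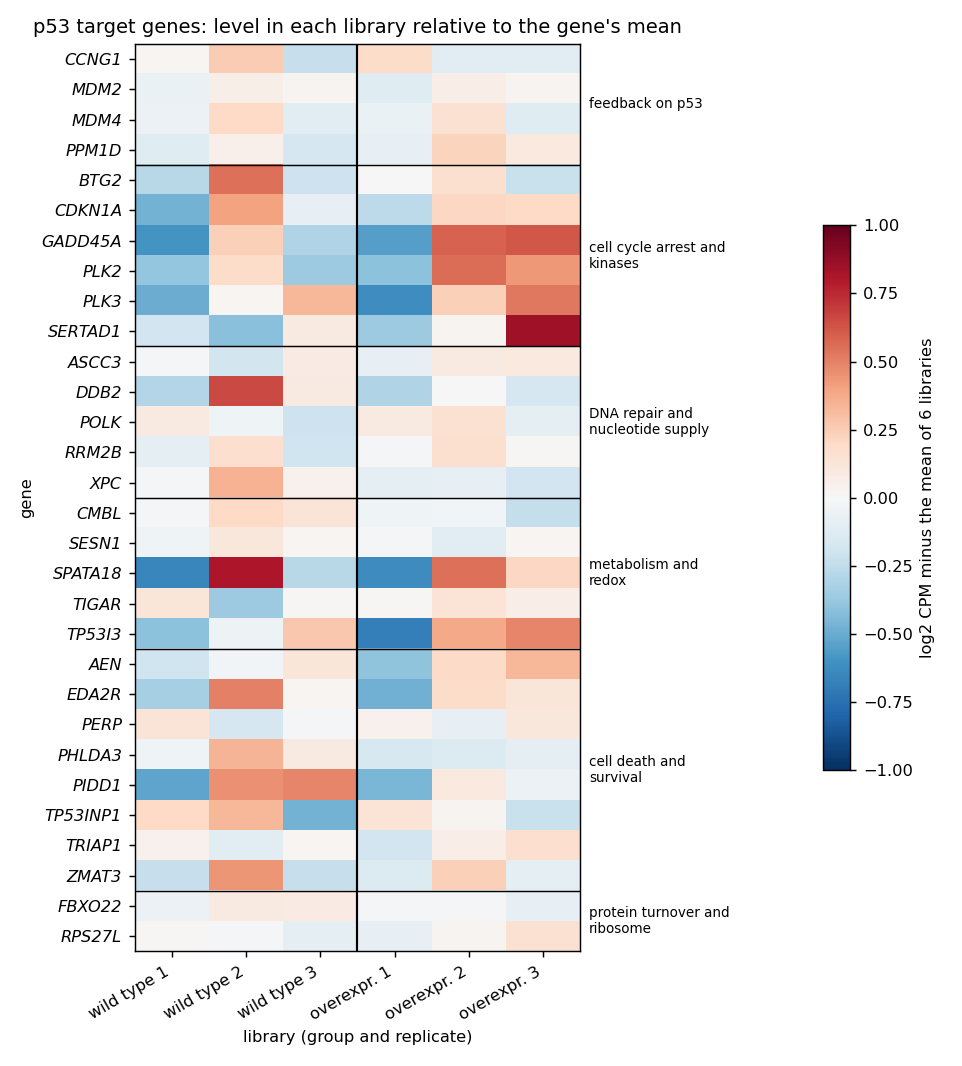
Level of each of the 30 genes in each library, as log2 CPM minus the gene's mean over the 6 libraries (colour, scale from -1 to 1), with genes grouped by role (rows) and libraries in columns. Wild-type replicate 2 is mostly red and replicate 1 of both groups mostly blue, with SPATA18 spanning the widest range.

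The 4 genes that feed back on p53 had overlapping groups, and none passed the adjusted threshold. MDM2 (chromosome 12, 68808176 to 68850686 in GRCh38) was at 237, 259 and 254 CPM in wild type and at 229, 262 and 254 CPM with overexpression. The 2 sets overlapped almost completely, and the log2 fold change was -0.0088 with a 95% interval from -0.22 to 0.20. MDM4, an MDM2 relative that covers the activation domain of p53, was at 57.1, 68.4 and 55.2 CPM and at 56.6, 65.7 and 54.7 CPM. Replicate 2 was the highest of each group, and the log2 fold change was -0.030 (95% interval -0.29 to 0.23). PPM1D, the phosphatase WIP1 that removes damage-induced phosphates from p53 and its kinases, was at 56.0, 63.1 and 54.2 CPM and at 57.6, 71.0 and 65.1 CPM. Its overexpression libraries reached higher in each numbered pair, but the groups overlapped and the log2 fold change of 0.16 (SE 0.11) did not pass (edgeR adjusted p = 0.93). CCNG1, the cyclin that recruits a phosphatase to MDM2, was at 276, 325 and 232 CPM and at 309, 252 and 252 CPM, with overlapping groups.

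For each of the 6 genes of cell cycle arrest, the range within either group exceeded the difference between the group means. CDKN1A encodes p21, the inhibitor of cyclin-dependent kinases through which p53 arrests the cycle, and lies on chromosome 6 from 36676460 to 36687339. It was at 66.7, 122 and 87.2 CPM in wild type and at 76.8, 107 and 106 CPM with overexpression. Its group means of 91.9 ± 28.0 and 96.5 ± 17.1 CPM (SD, n = 3 each) lay closer together than its wild-type libraries, and its log2 fold change of 0.069 had a 95% interval from -0.43 to 0.57. GADD45A, a growth arrest protein induced by DNA damage, was at 21.5, 38.5 and 26.5 CPM and at 22.3, 48.9 and 49.9 CPM. Overexpression replicates 2 and 3 stood above every wild-type library while replicate 1 stood among the lowest. Its log2 fold change of 0.49 (SE 0.35) was the highest of the 30 and did not pass (edgeR adjusted p = 0.93), and it ranged from 0.30 to 0.77 with 1 library left out.

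In the polo-like kinases and SERTAD1 too, replicate 1 was the lowest overexpression library. PLK2, a polo-like kinase, was at 11.9, 17.7 and 12.2 CPM and at 11.8, 23.1 and 21.1 CPM. Its log2 fold change was 0.42 (SE 0.26), and from 0.23 to 0.66 with 1 library left out, with overexpression replicate 1 level with the lowest wild-type libraries. PLK3, its relative, was at 4.49, 6.46 and 8.03 CPM and at 4.12, 7.51 and 9.20 CPM, so that both replicates 1 were low and both replicates 3 high. SERTAD1, a partner of CDK4, was at 9.24, 7.85 and 11.2 CPM and at 8.21, 10.7 and 19.0 CPM. Overexpression replicate 3 alone stood apart. The log2 fold change was 0.43 (SE 0.29, edgeR adjusted p = 0.93), and without that library it was 0.0021. BTG2, an antiproliferative protein that binds the deadenylase complex, was at 69.0, 123 and 72.4 CPM and at 84.0, 93.9 and 72.2 CPM. Wild-type replicate 2 was its highest library by a wide margin.

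**Figure D2:**
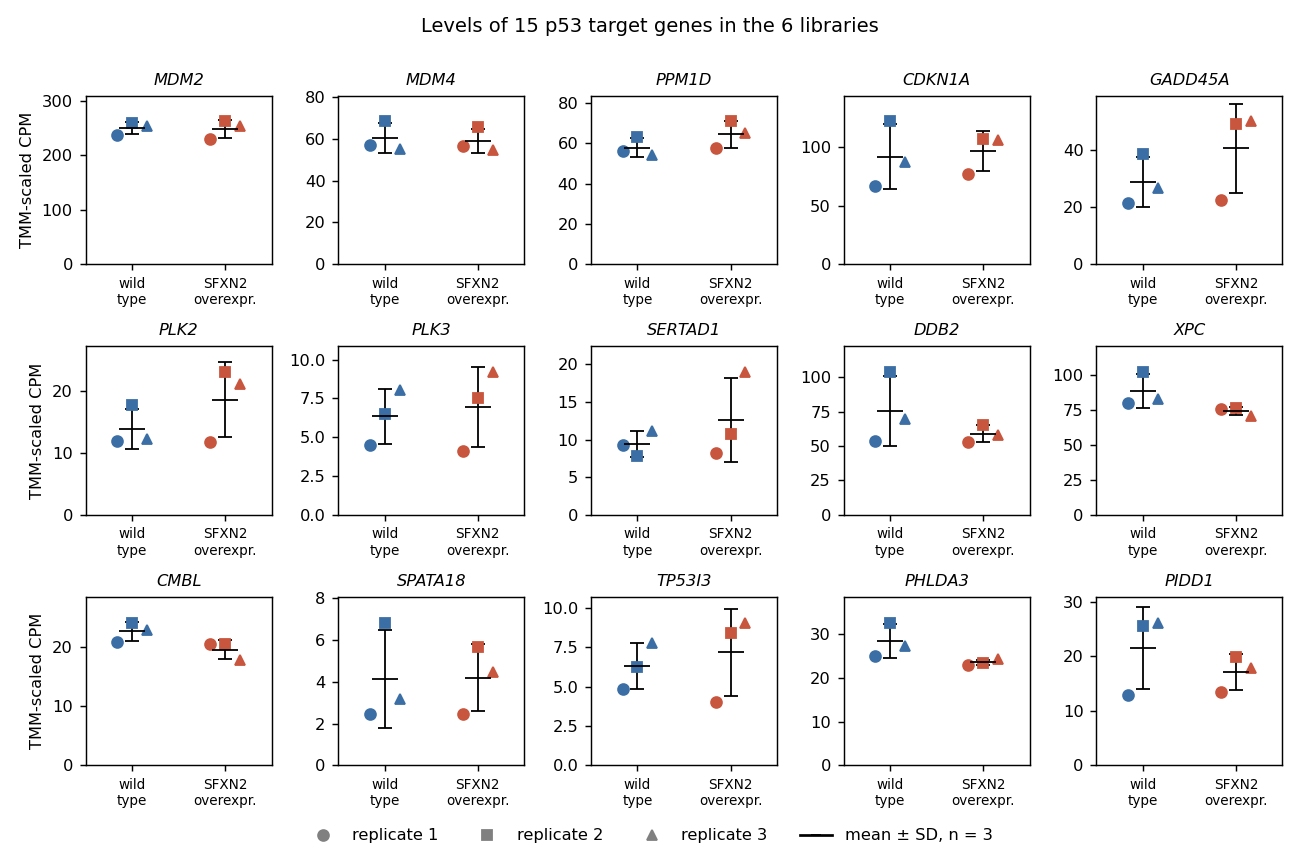
CPM (vertical axes, from 0) of 15 genes in the wild-type (blue) and overexpression (red) libraries, with the replicate number as the symbol and the mean ± SD (n = 3) as bars. For XPC, PHLDA3 and CMBL the 3 overexpression libraries lie below the 3 wild-type libraries, while for GADD45A and PLK2 replicate 1 of each group lies low.

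XPC and DDB2, the nucleotide excision repair genes of the list, had lower mean levels with overexpression, and neither passed the adjusted threshold. XPC, which recognises helix-distorting damage, was at 79.9, 102 and 83.0 CPM in wild type and at 75.5, 76.0 and 70.4 CPM with overexpression. The groups did not overlap, and the log2 fold change was -0.26 (95% interval -0.51 to -0.0044, unadjusted p = 0.0469, edgeR adjusted p = 0.93). Without wild-type replicate 2 it was -0.14. XPC shares 318 exon bases with LSM3 on the other strand, a gene at 53.2 CPM in wild type and 56.8 CPM with overexpression, and the library kit does not mark strand. DDB2, which binds ultraviolet photoproducts, was at 53.8, 104 and 70.0 CPM and at 53.3, 65.7 and 58.1 CPM. Its log2 fold change of -0.36 (SE 0.22) was the lowest of the 30 but the groups overlapped, since wild-type replicate 1 lay level with overexpression replicate 1. It rested on wild-type replicate 2, without which it was -0.069, nearer to 0 than the values of PIDD1 (-0.20), CMBL (-0.16), PHLDA3 (-0.15) and XPC (-0.14) without that library. The other repair and supply genes were close in both groups. RRM2B, the p53-induced subunit of ribonucleotide reductase, was at 38.1, 46.1 and 35.6 CPM and at 40.3, 45.7 and 41.2 CPM. POLK, a translesion polymerase, had a log2 fold change of 0.10 and ASCC3, a helicase, one of 0.073, both with overlapping groups. POLK also shares 230 exon bases with COL4A3BP on the other strand, a gene at 43.2 CPM in wild type and 46.8 CPM with overexpression.

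Metabolic targets included the gene with the widest range of all 30. SPATA18, known as Mieap and tied to quality control of mitochondria, was at 2.44, 6.83 and 3.17 CPM in wild type and at 2.47, 5.66 and 4.47 CPM with overexpression. Its highest library stood 2.80-fold above its lowest, and both replicates 2 were the top of their groups. The group means were 4.14 ± 2.35 and 4.20 ± 1.61 CPM (SD, n = 3 each), and the 95% interval ran from -0.92 to 0.96 on the log2 scale. TP53I3, a quinone oxidoreductase, was at 4.84, 6.22 and 7.77 CPM and at 4.02, 8.40 and 9.05 CPM, again lowest in replicate 1 of each group. TP53I3 shares 80 exon bases with FAM228B on the other strand, a gene at 6.51 CPM in wild type and 6.0 CPM with overexpression. CMBL, a hydrolase, was at 20.9, 24.2 and 23.0 CPM and at 20.5, 20.6 and 17.8 CPM. Its groups did not overlap, by a margin far smaller than the spread within either, and the log2 fold change was -0.21 (SE 0.12, edgeR adjusted p = 0.93). TIGAR, a phosphatase that lowers glycolytic flux, was at 45.4, 32.5 and 42.1 CPM and at 42.1, 46.2 and 43.9 CPM. Unlike most of the list it was lowest in wild-type replicate 2. SESN1, a sestrin that restrains mTORC1, stayed between 53.6 and 62.6 CPM in all 6 libraries.

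None of the 8 cell death and survival targets passed, and their values lay on both sides of 0. PHLDA3, which competes with AKT for membrane lipids, was at 25.1, 32.7 and 27.4 CPM in wild type and at 23.1, 23.4 and 24.3 CPM with overexpression. The groups did not overlap, and the log2 fold change was -0.27 (95% interval -0.55 to 0.013, edgeR adjusted p = 0.93), or -0.15 without wild-type replicate 2. PIDD1, the scaffold of the PIDDosome, was at 12.9, 25.6 and 26.2 CPM and at 13.5, 19.9 and 17.8 CPM, with both replicates 1 low. Its log2 fold change of -0.34 (SE 0.26, edgeR adjusted p = 0.93) was the second lowest of the 30 and ranged from -0.61 to -0.17 with 1 library left out. PIDD1 shares 107 exon bases with RPLP2 on the other strand, which is far more abundant (280.4 CPM in wild type and 244 CPM with overexpression). EDA2R, a receptor of the tumour necrosis factor family, was at 14.1, 25.0 and 17.9 CPM and at 12.7, 20.1 and 19.2 CPM. ZMAT3, an RNA-binding zinc finger protein, was at 36.0, 57.3 and 36.1 CPM and at 38.3, 50.0 and 39.8 CPM. Both genes were highest in wild-type replicate 2, and both had overlapping groups. AEN, a nuclease, was at 141, 159 and 177 CPM and at 123, 185 and 204 CPM, with a log2 fold change of 0.10. PERP, a membrane protein of desmosomes, moved against the list, at 117, 94.7 and 105 CPM and at 109.6, 101 and 115 CPM. TRIAP1, a mitochondrial lipid transfer partner, had a log2 fold change of 0.037, and TP53INP1, which takes part in autophagy and apoptosis, one of -0.071.

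The remaining targets hardly varied. RPS27L, a relative of the ribosomal protein RPS27 with which it may share reads, was between 42.6 and 50.3 CPM in all libraries. FBXO22, an F-box subunit of a ubiquitin ligase, was between 97.5 and 109.6 CPM. Neither pair of groups was separated, and FBXO22 had the narrowest range of the 30, its highest library standing 1.12-fold above its lowest.

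**Figure D3:**
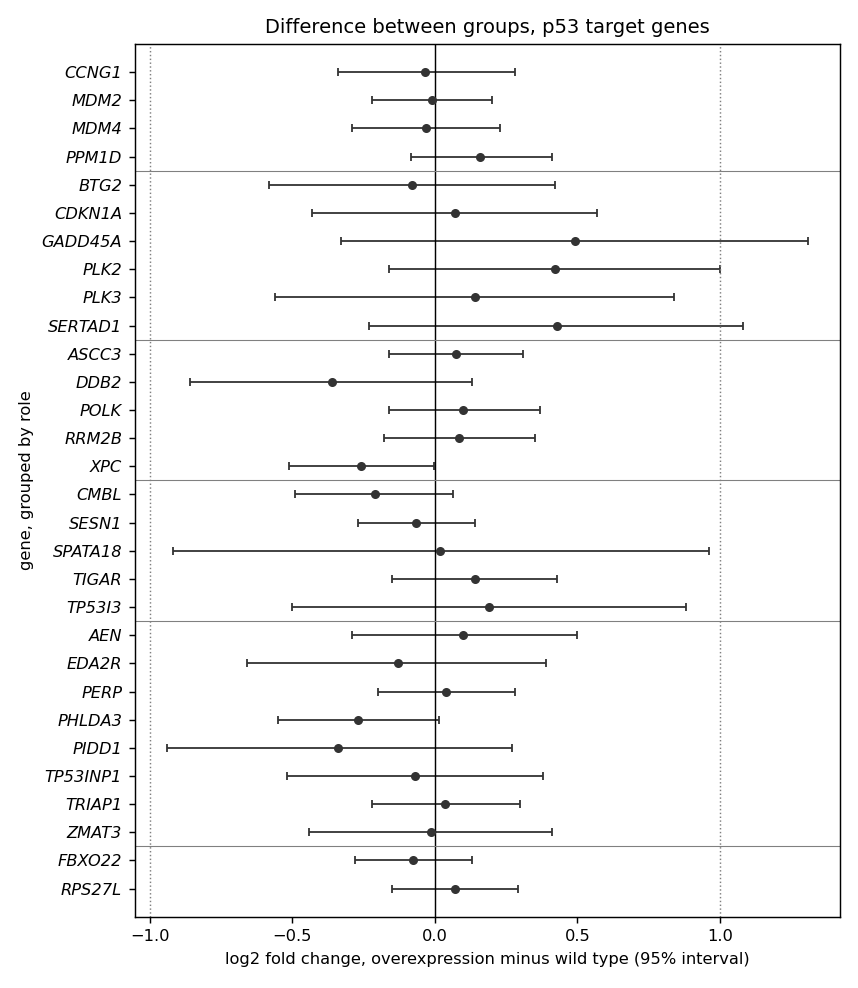
Log2 fold change of each gene, overexpression minus wild type, with its 95% interval (horizontal axis; dotted lines at -1 and 1), grouped by role as in the plot of levels by library. Only the interval of XPC excludes 0, and those of GADD45A and SERTAD1 reach past 1.

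Over the whole list, 16 log2 fold changes were positive and 14 negative, from -0.36 to 0.49. The median was 0.028, beside 0.0060 for all genes tested. The unadjusted p was under 0.05 for 1 member, XPC, against 4.76% of all genes in the edgeR test, and again for XPC alone with DESeq2, against 5.22% of all genes. DESeq2 also gave 0 adjusted calls among the 30, against 0.0479% of all genes. The lowest adjusted p of any member was 0.93. Groups did not overlap downward for 3 of 30 members (XPC, PHLDA3 and CMBL), where 4.25% of all genes did, and upward for 0 members, where 4.91% did. The 95% interval lay within -1 to 1 for 28 of the 30, as for 72.6% of all genes, and within -0.5 to 0.5 for 16, as for 44.4%. Log2 changes of both -1 and 1 lay outside the interval of 28 genes, and changes of both -0.5 and 0.5 outside that of 16. The median SE was 0.13, beside 0.17 over all genes.

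Within numbered pairs the direction varied. Overexpression was the higher library for 11 members in pair 1, 14 in pair 2 and 20 in pair 3. The median log2 ratios were -0.024, -0.035 and 0.13, beside -0.00069, 0.0088 and 0.0095 over all genes tested. The shares of all genes higher in each single pair were not worked out. Only GADD45A and PPM1D were higher in all 3 pairs (15.8% of all genes were), and DDB2, XPC, MDM4, PHLDA3 and CMBL were lower in all 3 (14.4% of all genes were). When the fit took the replicate number as a block, 5 members had an unadjusted p under 0.05 (8.32% of all genes did). They were GADD45A and PLK2 upward (4.05% of all genes) and XPC, DDB2 and PHLDA3 downward (4.26%). In that edgeR fit 0 of 30 members passed the adjusted threshold, as 0.00532% of all genes did.

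Levels per length of annotated exons set the members in order. CCNG1 was highest at 88.7 CPM per kb, well clear of BTG2 (31.1), CDKN1A (30.9), TRIAP1 (28.8), AEN (27.4) and PERP (25.0). Neighbours among those 5 differed by less than the larger of their SDs over the 6 libraries. MDM2 followed at 18.8 CPM per kb. At the bottom were TP53I3 (2.91), PLK3 (1.91) and SPATA18 (0.844), with gaps between them larger than either SD. The exon lengths join all annotated transcripts of a gene, so genes with long rare forms, such as RPS27L, may be understated. TIGAR shares 42.6% of its exon bases, and PHLDA3 19.1%, with another gene model on the same strand. How reads in such stretches were counted is not known.

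**Figure D4:**
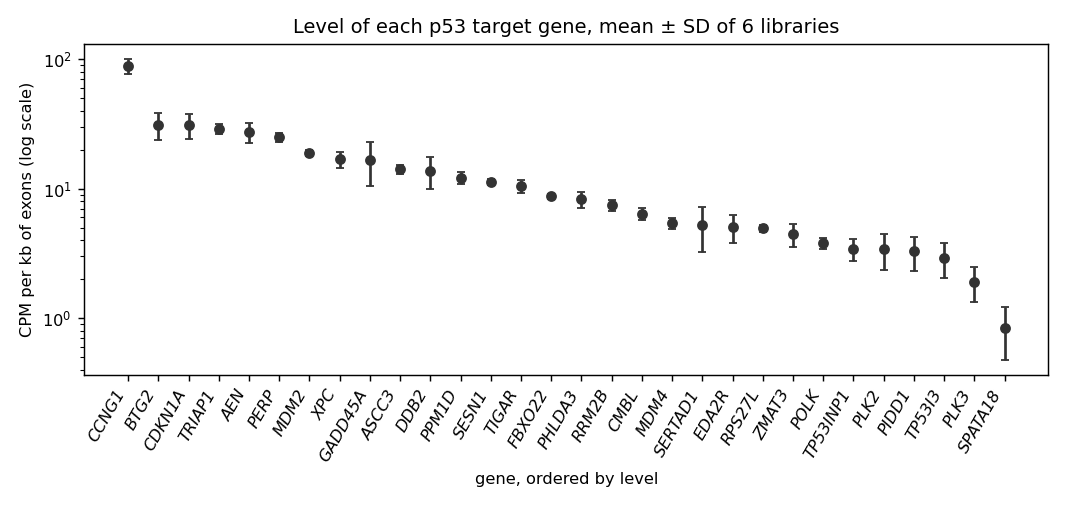
Mean CPM per kb of annotated exons (vertical axis, log scale) of the 30 genes in descending order, with bars for the SD over the 6 libraries. CCNG1 stands alone at the top (88.7) and SPATA18 at the bottom (0.844).

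In libraries with the same replicate number the median member lay on the same side of its mean. In wild-type replicate 3 it did so only slightly, with 16 members above their mean and 14 below. The median member, as log2 CPM minus the gene's own mean, was at -0.087, 0.17 and 0.014 in wild-type replicates 1, 2 and 3 and at -0.11, 0.12 and 0.051 in overexpression replicates 1, 2 and 3. Over all genes tested the same medians lay between -0.00079 and 0.014. Wild-type replicate 2 was the highest wild-type library for 19 members, as for 39.0% of all genes. By size, 7 members stood over 1.5-fold higher in wild-type replicate 2 than in the mean of the other wild-type libraries, where 12.5% of all genes did. In the overexpression group 8 members stood over 1.5-fold higher in the mean of replicates 2 and 3 than in replicate 1, where 14.7% of all genes did. Depth was greatest in overexpression replicates 2 and 3, at 52958006 and 59963713 counts, and its part was not tested. These are descriptions, since the list was drawn up with this movement known.

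The strength of the shared movement varied between members. The mean Pearson correlation over the 435 pairs of members was 0.20 across the 6 libraries, beside 0.00079 over all pairs of tested genes, and 0.24 after each group's mean was taken out. All pairs share the same 6 libraries. The list was drawn up with this movement known, so a value above that of all genes is no test of it. The correlations given here are descriptions. Without wild-type replicate 2 the mean was 0.17, without overexpression replicate 1 it was 0.15, and without replicate 2 of both groups it fell to 0.10. Against the median of the other 29, EDA2R (r = 0.98), SPATA18 (0.97), CDKN1A (0.92) and MDM2 (0.91) followed most closely over the 6 libraries. MDM2 did so over a narrow range, its highest library standing 1.14-fold above its lowest. In all 16 members had an r above 0.5, and 6 had one below 0, the lowest being PERP (-0.81) and TIGAR (-0.58). The share of all genes with such an r was not worked out, so these counts have no background. Of the genes with a decamer in the windows above, PLK2 (0.71) and AEN (0.56) were among the 16, and SESN1 and RPS27L (0.21 each) were not.

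Other genes of the pathway gave 0 calls in either direction with edgeR, with or without the block, and with DESeq2. Over all genes 0.0106% were called with edgeR, 0.00532% with the block and 0.0479% with DESeq2. Of 40 further p53 targets 39 were tested, 20 with a positive and 19 with a negative log2 fold change and a median of 0.012. In edgeR 2 of the 39 had an unadjusted p under 0.05, both lower, where 4.76% of all genes had one in either direction. The smallest unadjusted p values there belonged to TP53I13 at 21.9 ± 2.34 and 16.3 ± 1.54 CPM, PLXNB2 at 268 ± 57.5 and 201 ± 25.1 CPM, and FDXR, a mitochondrial reductase, at 33.3 ± 7.03 and 26.0 ± 2.85 CPM (wild type and overexpression, SD, n = 3 each). All 3 were lower with overexpression and had an edgeR adjusted p of 0.93. The median of these targets by library was -0.085, 0.16 and -0.048 in wild type and -0.048, 0.054 and 0.0029 with overexpression, so wild-type replicate 2 was again the highest.

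Of 30 regulators and cofactors of p53, 15 had a positive and 15 a negative value, with a median of -0.0015. In edgeR 0 of the 30 had an unadjusted p under 0.05, against 4.76% of all genes. The smallest unadjusted p values belonged to TP53BP2, at 126 ± 7.87 and 142 ± 8.96 CPM, SIRT1, a deacetylase of p53, at 57.2 ± 7.32 and 64.7 ± 6.29 CPM, and HUWE1, a ubiquitin ligase, at 815 ± 71.5 and 733 ± 36.1 CPM (SD, n = 3 each). Their library medians stayed between -0.044 and 0.042. Of 30 cell cycle genes known to be lowered through p21 and the DREAM repressor complex, 19 had a positive and 11 a negative value. Their median was 0.035, and 1 gene, MCM5, had an unadjusted p under 0.05 in edgeR, against 4.76% of all genes. The smallest unadjusted p values belonged to MCM5, a subunit of the replicative helicase, at 204 ± 9.06 and 173 ± 14.2 CPM, CKS2, a cyclin-dependent kinase partner, at 56.8 ± 5.83 and 68.1 ± 12.1 CPM, and E2F1 at 57.1 ± 2.88 and 51.2 ± 1.54 CPM (SD, n = 3 each). This list was highest in both replicates 1 and lowest in both replicates 2, at 0.10, -0.10 and 0.0038 in wild type and 0.12, -0.090 and 0.026 with overexpression.

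Immediate-early genes, which serum and stress induce within minutes to hours, were also low in both replicates 1 and high in both replicates 2, by larger amounts. BTG2, PLK2 and PLK3 are themselves known as early-response genes. The median of 25 such genes outside the list was -0.55, 0.52 and -0.57 in wild type and -0.61, 0.84 and 0.079 with overexpression. In wild-type replicate 3 they were as low as in wild-type replicate 1, while the p53 target median in replicate 3 was 0.014. EGR1, named after its values were seen, was at 3.10, 723 and 8.34 CPM and at 2.50, 316 and 43.3 CPM. FOS, chosen likewise, was at 1.27, 337 and 1.95 CPM and at 0.747, 182 and 9.16 CPM. Both were far higher in replicate 2 of each group than in any other library. Between the groups 0 of the 25 passed in edgeR, against 0.0106% of all genes. An unadjusted p under 0.05 belonged to 1 of them (IER3), against 4.76% of all genes in that test. The smallest unadjusted p values belonged to IER3, at 12.4 ± 3.18 and 17.7 ± 3.02 CPM, KLF6, at 39.2 ± 10.9 and 54.7 ± 16.2 CPM, and CTGF, at 5.17 ± 1.76 and 8.71 ± 5.18 CPM (SD, n = 3 each). Their part in the movement of the p53 targets was not tested.

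**Figure D5:**
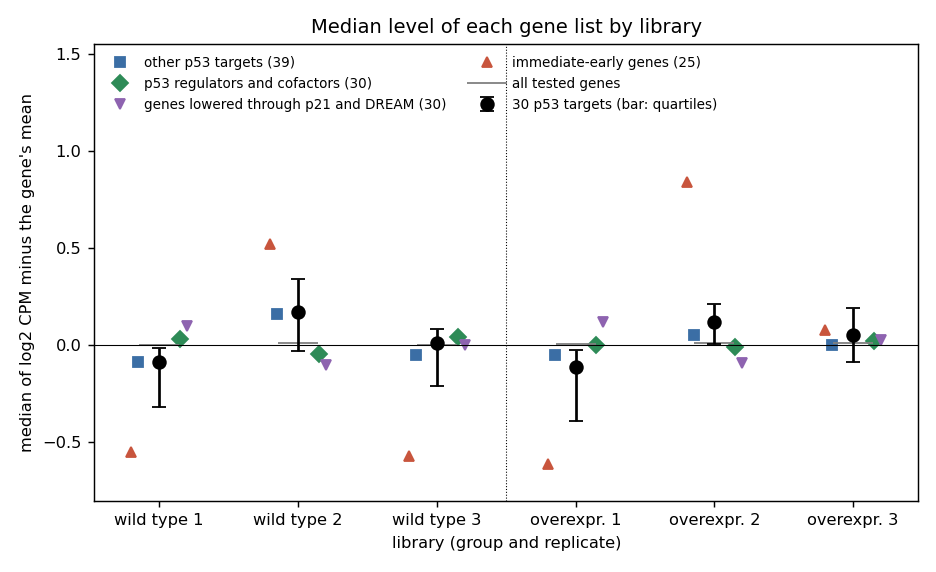
Median of log2 CPM minus the gene's own mean (vertical axis) in each library for the 30 p53 targets (black, bars for the quartiles), 4 other gene lists and all tested genes (grey). The immediate-early genes (red) are high in both replicates 2, where the p53 targets are also above 0 and the genes lowered through p21 (purple) below 0.

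Markers of other cell types were also listed by library. The 12 markers of blood and immune cells summed to between 1.58 and 2.77 CPM in wild type and between 1.52 and 4.96 CPM with overexpression, with TYROBP and HBB at 0 in every library. The 12 markers of neurons summed to between 88.0 and 103 CPM and between 86.9 and 121 CPM, and were highest in overexpression replicates 2 and 3. Of the 10 neuron markers tested, 9 had a positive and 1 a negative log2 fold change, with a median of 0.50. In edgeR 0 of them passed the adjusted threshold, where 0.0106% of all genes did. The 10 fibroblast markers summed to between 17.6 and 23.6 CPM and between 14.5 and 24.0 CPM, and the 10 epithelial markers, with KRT14 at 0, to between 521 and 574 CPM and between 552 and 581 CPM. All 8 genes expected in HEK293, among them PAX2, LHX1 and NEFM, stood at a mean of at least 1 CPM. The part of depth and of these markers in the p53 target levels was not tested.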

How the data were processed

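Total RNA depleted of ribosomal RNA was sequenced from TruSeq v2 libraries, per the labels' protocols. The submitters' processing notes name Trim Galore 0.4.4 and hg38; no source used here names the aligner, counter or annotation. The authors deposited raw counts for 60564 Ensembl genes, of which 26580 had none; their log2 table was not used here. Gene counts were filtered with filterByExpr (minimum count 10) and scaled by TMM (trimmed mean of M-values). Groups were compared in edgeR 4.0.16 under R 4.3.3 with its robust quasi-likelihood test, adjusted by Benjamini-Hochberg over 18797 genes. The code was tested on simulated data. Log2 CPM used a prior count of 2. Exon lengths and positions came from GENCODE 29 on GRCh38, and promoter windows from RefSeq. Replicate libraries differed beyond sampling noise (chi-square of at least 16.3 per degree of freedom), and all were kept. Same-numbered libraries deviated together from their group means (correlations over genes of 0.242, 0.327 and 0.19), so the numbers were taken as pairing them, from the data. Each member is named; values in every library were fixed for the 8 smallest unadjusted p, the 6 widest ranges, MDM2, MDM4 and CDKN1A. Other genes are the 3 with the smallest p in each list. Further member values, EGR1 and FOS were added after values were seen. Members and lists were chosen with earlier results of these data known. Other settings were median-of-ratios scaling, DESeq2 1.42.0, no filter, the replicate block and leaving out libraries.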

Additional observations from a re-analysis of the deposited data

How the results depend on the processing

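No member and no gene of the 4 other pathway lists passed under median-of-ratios scaling, DESeq2, no low-count filter, the replicate block or any left-out library; leaving out replicate 2 of both groups was chosen after seeing the data. Over all genes the 2 calls became 9 with DESeq2, 1 with the replicate block and 1 to 3 with a library left out. The members' median log2 fold change stayed between -0.049 and 0.089. Of 120 member values under the first 4 settings, 119 kept their direction; the exception was ZMAT3 with the replicate block (0.0097), and the block changed no member's call. Leaving out libraries turned the direction of 17 members, none of them called, so their log2 fold changes have no fixed sign: MDM2 ranged from -0.054 to 0.043, MDM4 from -0.12 to 0.071, CDKN1A from -0.12 to 0.33, SESN1 from -0.11 to 0.014, TP53I3 from -0.021 to 0.47, TP53INP1 from -0.28 to 0.084, ZMAT3 from -0.15 to 0.24, PLK3 from -0.13 to 0.40, BTG2 from -0.24 to 0.24, TIGAR from -0.022 to 0.23, AEN from -0.051 to 0.29, CCNG1 from -0.15 to 0.15, SPATA18 from -0.26 to 0.58, TRIAP1 from -0.049 to 0.13, EDA2R from -0.32 to 0.11, PERP from -0.037 to 0.11 and ASCC3 from -0.020 to 0.13. The cause was not tested. Members with an unadjusted p under 0.05 numbered 0 to 4 with 1 library left out, while 1.59% to 11.8% of all genes had one; the counts of 4 came without wild-type replicate 1 (7.73% of all genes) and without overexpression replicate 1 (11.8%). Intervals cover the spread between these libraries, which with 3 per group limits precision.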
